A study of Mus musculus with 4 samples.

Results

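Scavenger and efferocytosis receptors are the surface proteins through which macrophages bind and take up altered proteins, lipids, debris and dying cells. Described here are 10 such genes of the 32287 features measured in each library, chosen by symbol: Mrc1, Cd163, Msr1, Marco, Stab1, Timd4, Mertk, Axl, Lyve1 and Folr2. All 10 symbols were found once in the feature list. Their unique molecular identifiers (UMIs, each standing for 1 captured RNA molecule) were summed over the cells of each cell class in each library. The cells had been clustered with these 10 genes left out.

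The data are 3′ single-cell RNA sequencing of live, nucleated cells that were sorted from the hearts of mice, in 4 libraries, 1 per group. Control hearts carried Tcf21-MerCreMer, a tamoxifen-inducible Cre expressed from the Tcf21 gene of cardiac fibroblasts, and the other hearts carried Tcf21-MerCreMer:flox. Each genotype was studied without infarction and 3 days after myocardial infarction, the death of heart muscle that follows loss of its blood supply. All groups received tamoxifen. The labels give neither the number of animals in a library nor the part of Tcf21 that is floxed. In fibroblasts Tcf21 itself stood at 96.1 CPM (UMIs per 1000000 UMIs of the class sum) in the control library and 146 CPM in the other genotype without infarction, and at 21.9 and 32.5 CPM after it. The transcript was thus not lower in the second genotype, although 3′ reads need not cover the floxed part. Deletion itself was not tested, so the second genotype is called deletion-labelled.

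The libraries held 55710468 to 129704045 UMIs in 9149 to 11541 barcodes, and 8274 to 10108 cells were kept. Any pair of libraries shared 19 to 41 barcodes. With 1 library per group there is no spread between animals to compare with, so no test was run. Each library enters both an infarction and a genotype comparison, so these comparisons are not independent. The intervals in parentheses are exact 95% intervals that cover counting error only. Genes are counted as higher or lower at a fold of at least 1.5, among genes with at least 30 UMIs in 1 of the sums compared. Levels are compared within a gene and not between genes, because 3′ counts capture different genes with different efficiency.

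Uptake receptors fall into families with different ligands. Mrc1 encodes the mannose receptor and Cd163 the receptor for haemoglobin bound to haptoglobin. Msr1 and Marco are class A scavenger receptors for modified lipoproteins and microbial surfaces, and Stab1 encodes stabilin-1, an endocytic receptor of macrophages and some endothelium. Clearance of apoptotic cells, called efferocytosis, begins when phosphatidylserine on the dying cell is recognised. TIM-4 (Timd4) binds it directly. The receptor tyrosine kinases MerTK and AXL bind it through bridging proteins, Gas6 for both and protein S for MerTK. Lyve1, a hyaluronan receptor, and Folr2, a folate receptor, are widely used markers of tissue-resident macrophages in the heart and other organs.

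The mononuclear phagocytes numbered 588 cells in the control library and 447 in the deletion-labelled library without infarction, and 3463 and 2853 after infarction. They were clustered again into 23 clusters, of which 12 were named from marker lists that hold none of the 10 receptors. Resident macrophages, named from genes such as Cbr2, Vsig4, Fcrls and Selenop, made up 496 and 326 cells without infarction, which is 84.4% and 72.9% of the phagocytes. After infarction they made up 104 and 432 cells, 3.00% and 15.1%. Macrophages led by Fabp5, Spp1 and Gpnmb numbered 526 and 167 in the infarction libraries and 0 in the other 2, and classical monocytes numbered 792 and 721 there against 2 and 7 without infarction.

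The resident macrophages without infarction and those after it came from different clusters. Cluster 2, led by Hpgd, Mgl2 and C1qa among the genes outside the 10, held 496 and 325 cells without infarction and 0 and 7 after it. Cluster 4, led by Ccl8, Pf4 and Selenop, held 104 and 425 cells after infarction and at most 1 before. In the class as a whole the summed level of the resident marker list was 6624 and 6278 CPM without infarction and 2650 and 2943 CPM after it. The Gpnmb macrophage list summed to 1568 and 1338 CPM before and 19950 and 21260 CPM after, and the MHC class II list to 22050 and 27370 CPM before and 682 and 2235 CPM after. Whether the resident macrophages after infarction are the cells present before it or cells that arrived later cannot be told apart.

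Most UMIs of 8 of the 10 genes lay in mononuclear phagocytes in every library, the exceptions being Axl and Mertk. The phagocyte share was 96.2% to 98.8% for Mrc1, 95.0% to 98.8% for Cd163, 94.8% to 98.9% for Msr1 and 94.1% to 98.5% for Folr2. Lyve1 stood at 79.9% to 86.8%, Stab1 at 51.4% to 95.3% and Timd4 at 94.9% to 99.7%. Marco stood at 98.5% and 98.6% after infarction, and had 2 and 14 phagocyte UMIs without it. B cells, which should lack all 10 receptors, held at most 9.99 CPM of any of them, the highest being Stab1 in the deletion-labelled infarction library. Some other classes outside the phagocytes held more. T and NK cells of the deletion-labelled library without infarction held Mrc1 at 67.3 CPM, Cd163 at 28.8 CPM and Lyve1 at 23.1 CPM. In the other libraries their Mrc1 was at 1.65 to 7.58 CPM. Neutrophils held Stab1 at 23.95 and 22.1 CPM after infarction. The B cell values given below are thus not the highest background.

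**Figure D1:**
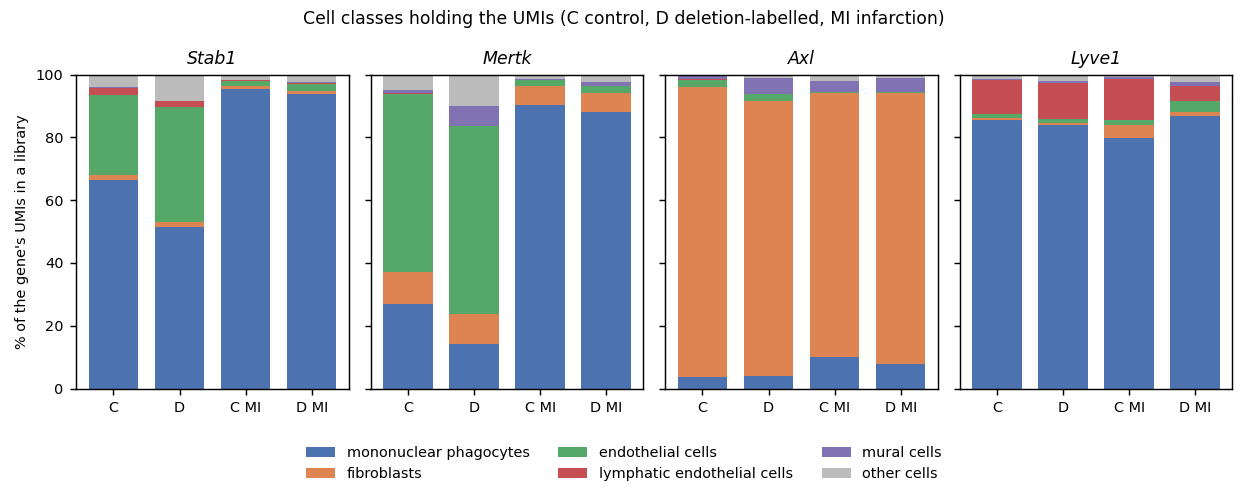
Percent of the UMIs of Stab1, Mertk, Axl and Lyve1 held by each cell class (stacked bars, 1 per library: C control, D deletion-labelled, MI infarction). Fibroblasts hold 84.2% to 92.3% of Axl, and endothelial cells hold 57.0% and 59.9% of Mertk in the libraries without infarction.

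Axl was mainly a fibroblast transcript in these hearts. Fibroblasts held 92.3% and 87.8% of its UMIs without infarction and 84.2% and 86.4% after it, against 3.58% to 10.1% in phagocytes. Its level in fibroblasts was 430 and 409 CPM without infarction and 154 and 248 CPM after, control first. Mural cells, the pericytes and smooth muscle around vessels, carried 129 and 204 CPM before and 193 and 238 CPM after.

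Mertk, Stab1 and Lyve1 had a second home in endothelium. Endothelial cells held 57.0% and 59.9% of all Mertk UMIs in the uninjured libraries, at 56.8 and 40.1 CPM, and 1.85% and 2.47% in the infarction libraries, at 18.6 and 19.0 CPM. The number of endothelial cells also differed, with 4397 and 5104 such cells in the uninjured and 205 and 487 in the infarction libraries. The lymphatic endothelium, 66 cells over all 4 libraries, had the highest Lyve1 level of any class at 1855 CPM (1735 to 1981, 884 UMIs). They held 10.9% and 11.4% of its UMIs without infarction and 13.2% and 4.63% after it. The same 66 cells carried Stab1 at 678 CPM (606 to 756) and Mrc1 at 225 CPM (184 to 271). A cluster of 76 endothelial cells led by Npr3 and Vwf held Stab1 at 328 CPM and Lyve1 at 107 CPM. These 2 groups were set apart after the data were seen.

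In resident macrophages 6 of the 9 receptors with enough counts were lower after infarction in both genotypes, and Msr1 was the 1 receptor higher. The 6 were Mrc1, Cd163, Timd4, Axl, Lyve1 and Folr2. Stab1 and Mertk stayed within 1.5-fold, and Marco had under 30 UMIs in every resident sum. The cells named resident came from different clusters without and after infarction, so these ratios compare clusters and need not be a change within the same cells. Of all 8873 genes compared in control hearts, 17.3% were higher and 35.5% lower, and in deletion-labelled hearts 20.9% of 9813 were higher and 22.6% lower. The median log2 ratio of the 9 receptors was -1.46 in control and -1.78 in deletion-labelled hearts, beside -0.25 and 0.01 over all genes compared. Over 9 alternative settings the number of receptors past the fold used ranged from 6 to 8 in each genotype, and no called ratio changed sign. In control hearts Msr1 was within 1.5-fold in each of the 5 alternatives that redrew the clusters.

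**Figure D2:**
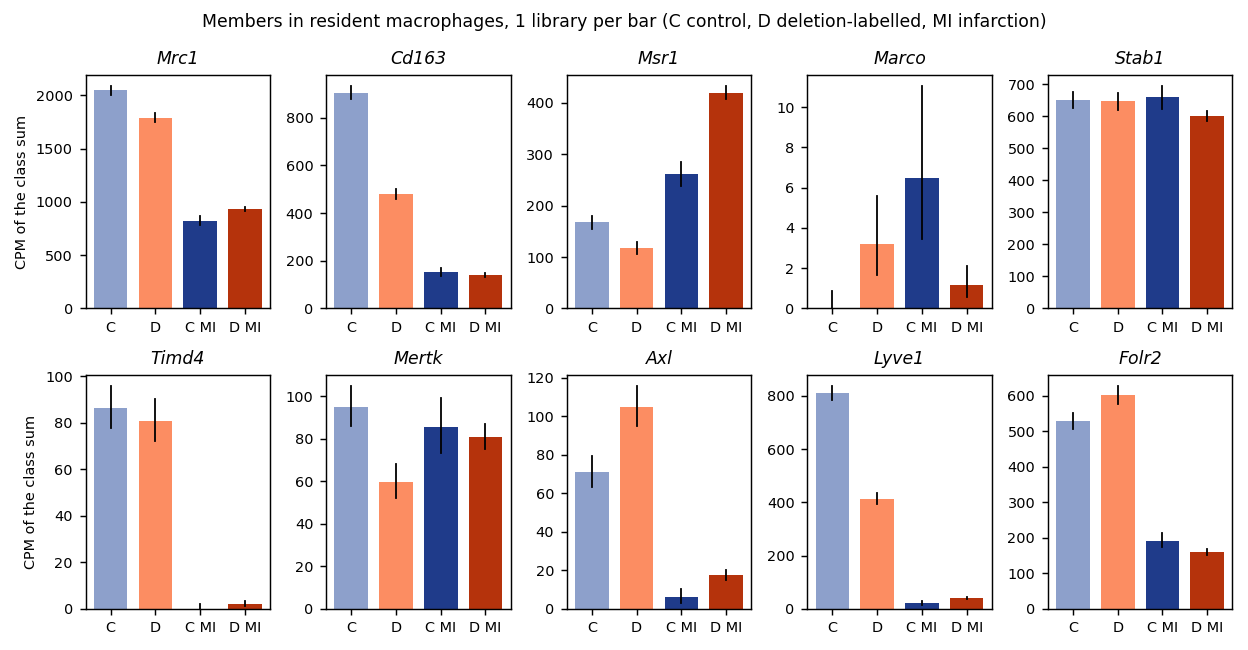
Level of each receptor in resident macrophages, as CPM of the class sum, with 1 library per bar (C control, D deletion-labelled, MI infarction) and exact 95% counting intervals. Axes start at 0 and differ between genes. Timd4 and Lyve1 are low in both infarction libraries, at 0 and 2.16 CPM and at 21.9 and 40.7 CPM, Msr1 is higher there, and Stab1 lies between 602 and 660 CPM in all 4.

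**Figure D3:**
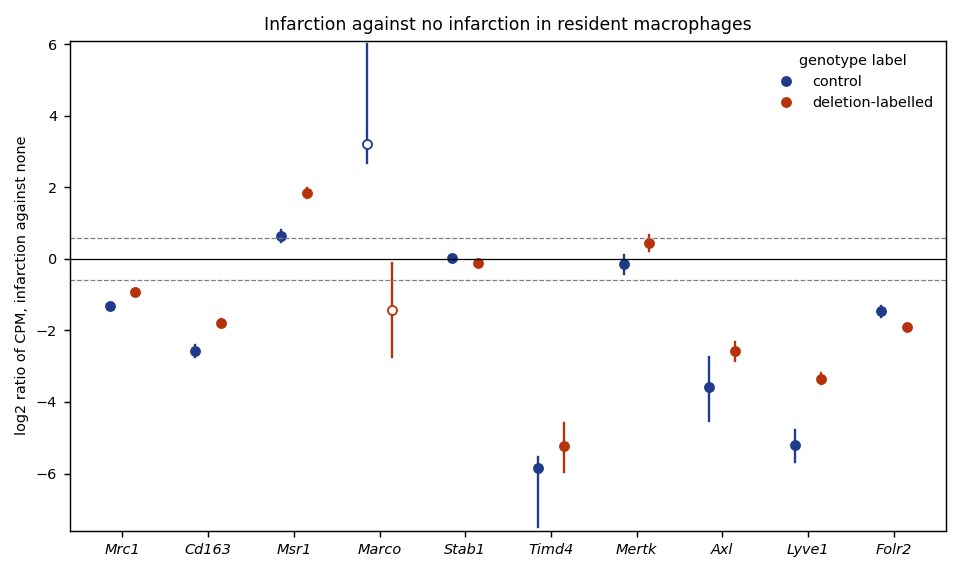
Log2 ratio of infarction to no infarction in resident macrophages for each receptor, control and deletion-labelled hearts side by side, with exact 95% counting intervals drawn within the axis range and dashed lines at 1.5-fold. Open points had under 30 UMIs in both sums, and the control Timd4 point uses the floor of 3 UMIs. Lyve1 and Timd4 are the lowest points in both genotypes and Msr1 lies above 0 in both.

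Mrc1 (ENSMUSG00000026712, GRCm38 chromosome 2, 14229392 to 14332057, plus strand) was found in most resident macrophages of all 4 libraries. Its level was 2048 CPM (2006 to 2092, 8738 UMIs) in the control and 1792 CPM (1750 to 1836) in the deletion-labelled library without infarction, and 825 CPM (786 to 866) and 937 CPM (917 to 957) after it. Both infarction libraries lay below both libraries without infarction. The log2 ratio to no infarction was -1.31 (-1.39 to -1.24) in control and -0.94 (-0.98 to -0.89) in deletion-labelled hearts, a level 2.48-fold and 1.91-fold lower. After each cell was thinned to 2000 UMIs, 91.7% and 87.6% of resident macrophages without infarction held a UMI of Mrc1, and 74.0% and 71.0% after it. The unthinned shares were 95.2% to 97.4% in all 4 libraries. B cells gave thinned shares of 0.66% to 2.32%, with median depths of 2366 to 4074 UMIs against 7312 to 18450 in resident macrophages. At re-clustering resolution 2.0, which left 227 and 120 resident cells without infarction, the ratios were -2.25 and -1.87.

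Cd163 (ENSMUSG00000008845, chromosome 6, 124304656 to 124330527, plus strand) was lower after infarction by a larger factor than Mrc1. It stood at 906 CPM (877 to 935) in the control and 480 CPM (459 to 503) in the deletion-labelled library without infarction, and at 151 CPM (135 to 169) and 140.0 CPM (132 to 148) after it. The infarction levels of the genotypes lay close together, and the levels without infarction did not. The change was 5.98-fold in control and 3.43-fold in deletion-labelled hearts, log2 ratios of -2.58 and -1.78. These ranged from -4.12 to -2.46 and from -3.49 to -1.54 over the alternatives. Thinned shares of cells with Cd163 were 59.6% and 39.8% before and 11.5% and 13.0% after, beside at most 0.54% of B cells.

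Among control resident macrophages without infarction, Cd163 was found in 63.4% (281 of 443, 58.8% to 67.9%) of the thinned cells with Mrc1 and in 17.5% (7 of 40, 7.34% to 32.8%) of those without. The deletion-labelled library gave 41.5% (117 of 282) and 27.5% (11 of 40), whose intervals overlap. Cells with and without a UMI also differ in how much of their content happened to be read, so these shares describe co-detection only.

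Msr1 (ENSMUSG00000025044, chromosome 8, 39581685 to 39642673, minus strand), the class A receptor for oxidised lipoprotein, was the 1 receptor higher in resident macrophages after infarction. Its level was 167 CPM (155 to 180) before and 261 CPM (239 to 284) after infarction in control hearts, and 117 CPM (106 to 128) and 420.0 CPM (407 to 433) in deletion-labelled hearts. Both infarction libraries lay above both others. The ratios were 1.56-fold (log2 0.64, 0.48 to 0.81) and 3.59-fold (log2 1.85, 1.70 to 1.99), but in control hearts the log2 ratio was 0.11 to 0.43 and within 1.5-fold in all 5 alternatives that redrew the clusters. In deletion-labelled hearts it was at least 1.27 in every alternative. Thinned shares of cells with Msr1 were 24.4% and 19.2% before and 39.4% and 45.5% after. Msr1 was also high in other infarct phagocytes, at 336 and 479 CPM in Gpnmb macrophages and 431 and 554 CPM in classical monocytes, and lower in MHC class II phagocytes at 67.8 and 76.0 CPM.

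Marco (ENSMUSG00000026390, chromosome 1, 120474538 to 120505024, minus strand) is a relative of Msr1 that was scarce in resident macrophages. Resident macrophages held 0 and 12 Marco UMIs without infarction and 13 and 11 after it. Over all phagocytes of control hearts it had 2 UMIs (0.373 CPM) before and 4737 UMIs (76.0 CPM) after infarction. In deletion-labelled hearts it stood at 2.60 and 25.7 CPM. Its highest levels were in 2 small clusters that stayed unnamed. In cluster 16, led by Saa3, Prg4, Alox15, Slpi and Cd5l and holding 55 and 45 cells, Marco reached 1711 CPM (1637 to 1788) in the control and 321 CPM (288 to 357) in the deletion-labelled library. In cluster 6, led by Ltc4s, Saa3, Arg1, Prtn3 and Fcna and holding 237 and 164 cells, it stood at 558 CPM (536 to 581) and 223 CPM (207 to 239). Cycling phagocytes held 9.41 and 45.7 CPM (41 and 164 UMIs), and classical monocytes 1.14 and 0.191 CPM. Msr1 was also high in both clusters, at 514 and 625 CPM in cluster 16 and 459 and 540 CPM in cluster 6. After thinning, 43.6% of the control cells of cluster 16 held a Marco UMI, against 0.46% of B cells in that library.

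Stab1 (ENSMUSG00000042286, chromosome 14, 31139013 to 31168641, minus strand) differed little in resident macrophages across the 4 groups. Its level was 651 CPM (627 to 675) and 647 CPM (622 to 673) without infarction and 660 CPM (625 to 696) and 602 CPM (586 to 618) after it, control first. The log2 ratios of infarction to none were 0.02 (-0.08 to 0.11) and -0.10, but at resolution 2.0 they were -0.69 and -1.16. Thinned shares of cells with Stab1 were 64.8% and 58.1% before and 71.2% and 59.2% after.

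Timd4 (ENSMUSG00000055546, chromosome 11, 46810800 to 46844332, plus strand), the direct phosphatidylserine receptor, was found in resident macrophages before infarction and in hardly any afterwards. It had 369 UMIs (86.5 CPM, 77.9 to 95.8) in the control and 304 UMIs (80.8 CPM, 71.95 to 90.4) in the deletion-labelled resident macrophages without infarction. After infarction it had 0 UMIs in the control, which allows up to 1.49 CPM at the floor of 3 UMIs, and 20 UMIs (2.16 CPM, 1.32 to 3.33) in the deletion-labelled library. Against that floor the control level was at least 57.9-fold lower, and the deletion-labelled level was 37.5-fold lower, a log2 ratio of -5.23 (-5.96 to -4.58). Thinned shares went from 13.7% (10.7% to 17.0%) to 0 of 104 cells (exact interval up to 3.48%) in control hearts and from 11.2% to 0.70% in deletion-labelled hearts. Over the alternatives the ratio in deletion-labelled hearts ranged from -5.31 to -4.16. Without infarction Timd4 also stood at 65.8 and 108 CPM in cluster 19, an unnamed group of 35 and 23 phagocytes led by the endothelial genes Fabp4, Cdh5 and Kdr.

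Timd4 was not gone from the infarcted heart. It stood at 38.6 CPM (28.2 to 51.7) and 56.3 CPM (43.1 to 72.3) in cluster 16, control first, and at 20.05 CPM and 9.19 CPM in cluster 6, the 2 clusters that also carried Marco. Dendritic cells held 39.4 CPM (29.7 to 51.3) and 22.8 CPM (15.2 to 33.0), and MHC class II phagocytes 16.03 and 19.1 CPM. Classical monocytes had 0 and 2 UMIs and Gpnmb macrophages 2 and 0.

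The 250 bases before the gene start were searched for 7 short motifs, on both strands, in the 9 RefSeq promoters (GRCm38.p6) that belong to 8 of the 10 genes. TGCTGA, the core of the sites bound by MAF-family factors, was found in 4 of the 9, beside 16.1% of all 32851 promoters, and the AP-1 motif TGANTCA in 1 of 9, beside 6.75%. Both promoters of Folr2 hold the MAF core, so the 4 promoters with it are those of Folr2, Timd4 and Stab1. The letters GAGGAAGT (PU.1) and CACGTG (E-box) and the MEF2, IRF and DR4 motifs were in 0 of the 9, beside 2.44%, 6.02%, 0.103%, 2.98% and 0.0152% of all promoters. Timd4 and Stab1 are shown because Timd4 was far lower and Stab1 within 1.5-fold in resident macrophages after infarction while both hold the MAF core, in capitals, at 150 and 44 bases before the Timd4 start (as TCAGCA, its reverse complement) and 43 bases before the Stab1 start. The Timd4 window is chr11:46810549-46810798 on the plus strand and the Stab1 window chr14:31168642-31168891 on the minus strand, both written 5′ to 3′. A match describes the letters and not binding.
Timd4: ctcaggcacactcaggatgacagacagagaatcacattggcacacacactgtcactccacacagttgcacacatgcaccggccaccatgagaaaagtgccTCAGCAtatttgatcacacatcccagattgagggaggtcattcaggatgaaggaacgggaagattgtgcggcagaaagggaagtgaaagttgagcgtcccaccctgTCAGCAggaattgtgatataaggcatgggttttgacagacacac
Stab1: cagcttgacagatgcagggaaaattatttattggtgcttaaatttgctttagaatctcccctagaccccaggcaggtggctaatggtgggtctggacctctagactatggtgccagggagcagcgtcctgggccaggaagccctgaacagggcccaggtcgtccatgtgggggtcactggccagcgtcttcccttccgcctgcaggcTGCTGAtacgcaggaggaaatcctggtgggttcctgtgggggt

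Mertk (ENSMUSG00000014361, chromosome 2, 128698956 to 128802894, plus strand) stayed within 1.5-fold in resident macrophages. It stood at 95.2 CPM (86.1 to 105) and 59.8 CPM (52.2 to 68.1) without infarction and at 85.6 CPM (73.3 to 99.4) and 81.0 CPM (75.4 to 87.0) after it, control first. The lowest of the 4 was the deletion-labelled library without infarction. The log2 ratio of infarction to none was -0.15 (-0.42 to 0.11) in control and 0.44 (0.22 to 0.66) in deletion-labelled hearts. Over all phagocytes the control ratio was -1.37 (-1.51 to -1.22), and classical monocytes held 16.3 and 23.1 CPM of Mertk.

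Axl (ENSMUSG00000002602, chromosome 7, 25757273 to 25788705, minus strand), the sister kinase of MerTK, was lower in resident macrophages after infarction. It had 303 UMIs (71.0 CPM, 63.2 to 79.5) and 395 UMIs (105 CPM, 94.9 to 116) without infarction and 12 UMIs (5.98 CPM, 3.09 to 10.4) and 162 UMIs (17.5 CPM, 14.9 to 20.4) after it. The infarction levels lay below both others, by 11.9-fold in control and 6.01-fold in deletion-labelled hearts. The log2 ratios were -3.57 (-4.54 to -2.75) and -2.59. At resolution 2.0 they were -1.68 and -0.29, the deletion-labelled value being within 1.5-fold. Fibroblast markers, whose cells carry far more Axl, summed to 451 and 489 CPM in the resident class before and 332 and 331 CPM after. Endothelial markers summed to 466 and 573 CPM before and 49.8 and 112 CPM after, and the part of both lists in the Axl difference was not tested. MHC class II phagocytes with 30.8 and 25.6 CPM and an interferon-gene cluster (cluster 8, led by Rsad2 and Isg15) with 30.9 and 66.1 CPM held more Axl than resident macrophages did after infarction. Few thinned cells held both kinases, so their co-detection is given as a description only. In control hearts without infarction Axl was found in 15.4% (14 of 91) of the thinned cells with Mertk and 12.5% (49 of 392) of those without.

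Transcripts of the bridging proteins Gas6 and protein S were also lower in the resident class after infarction. Gas6 in resident macrophages was at 499 and 479 CPM without infarction and at 170 and 173 CPM after it. It also belongs to the marker list that named these cells, so its high level there was part of the naming. Pros1, which encodes protein S, went from 114 and 102 CPM to 21.4 and 23.7 CPM, log2 ratios of -2.41 and -2.10. In fibroblasts Gas6 stood at 252 and 256 CPM before and 28.9 and 77.1 CPM after, and in endothelial cells at 240.5 and 271 CPM before and 41.2 and 111 CPM after. Fibroblast Pros1 was at 115 and 93.1 CPM before and 83.5 and 101 CPM after.

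Lyve1 (ENSMUSG00000030787, chromosome 7, 110850607 to 110863239, minus strand) showed the lowest ratio of the receptors with UMIs in every library. Its level in resident macrophages was 810 CPM (783 to 837, 3455 UMIs) in the control and 414 CPM (393 to 435, from 1557 UMIs) in its deletion-labelled counterpart, both without infarction. After infarction it was 21.9 CPM (15.9 to 29.4, 44 UMIs) and 40.7 CPM (36.7 to 45.1, 378 UMIs). That is 37.0-fold and 10.2-fold lower, log2 ratios of -5.21 (-5.67 to -4.78) and -3.34 (-3.51 to -3.18). Over the alternatives the ratio ranged from -8.89 to -5.09 in control and from -4.89 to -3.11 in deletion-labelled hearts. Thinned shares of cells with Lyve1 were 42.2% (37.8% to 46.8%) and 31.4% (26.3% to 36.7%) before and 3.85% and 4.64% after, beside at most 0.82% of B cells.

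Folr2 (ENSMUSG00000032725, chromosome 7, 101839988 to 101857194, minus strand) was lower to a smaller degree. It stood at 528 CPM (506 to 550) and 602 CPM (577 to 627) without infarction and at 192 CPM (173 to 212) and 160.0 CPM (152 to 168) after it. The levels were 2.75-fold and 3.76-fold lower, log2 ratios of -1.46 and -1.91, and were as low as -2.78 and -3.24 at resolution 2.0. Thinned shares were 42.2% and 46.9% before and 27.9% and 22.3% after.

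Lyve1, Folr2 and Timd4 marked overlapping resident macrophages. In the control library without infarction 71.1% (145 of 204, 64.3% to 77.2%) of the thinned cells with Lyve1 held Folr2, against 21.2% (59 of 279, 16.5% to 26.4%) of those without. The deletion-labelled library gave 79.2% (80 of 101) and 32.1% (71 of 221). Timd4 was found in 24.5% (50 of 204) of control cells with Lyve1 and 5.74% (16 of 279) of those without, and in 19.8% and 7.24% in the deletion-labelled library. In all of these the intervals were apart. After infarction 13 of the 20 deletion-labelled resident cells with Lyve1 held Folr2, 65.0% (40.8% to 84.6%), against 20.2% (83 of 411, 16.4% to 24.4%) of those without.

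Over all mononuclear phagocytes, where no subset has to be named, 8 of 10 receptors were lower and 2 higher after infarction in control hearts, beside 38.3% and 19.6% of 12376 genes. In deletion-labelled hearts 7 were lower and 2 higher, beside 31.1% and 18.6% of 12270 genes, and Mertk was at -0.12 (-0.30 to 0.06). The 2 higher in both genotypes were Msr1 and Marco. Lyve1 went from 721 to 8.15 CPM in control hearts, a log2 ratio of -6.47 (-6.60 to -6.33), and Mrc1 from 1781 to 228 CPM. These sums mix the change in which phagocytes were present with any change inside a class, and the 2 cannot be told apart from them.

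After infarction the receptors differed between the 3 named classes, most being highest in resident macrophages and lowest in classical monocytes. In the control library 6 of 8 receptors were higher in resident than in Gpnmb macrophages and 0 lower, beside 14.6% and 6.57% of all genes. The differences were 1.5 for Mrc1, 3.82 for Cd163, 1.14 for Folr2 and 0.84 for Stab1 on the log2 scale. In turn 5 of 7 were higher in Gpnmb macrophages than in classical monocytes and 0 lower, beside 18.5% and 18.1% of all genes, led by Folr2 at 3.49 and Mrc1 at 1.91. Resident macrophages against classical monocytes gave 6 higher, beside 18.3% of all genes, and 1 lower, beside 13.7%. That 1 was Msr1, at 261 CPM in resident macrophages and 431 CPM in monocytes, a log2 ratio of -0.73. The deletion-labelled library gave 6 of 8 higher and 0 lower in resident against Gpnmb macrophages, beside 16.3% and 3.43% of all genes. Gpnmb macrophages against monocytes gave 5 higher and 1 lower there, Axl at -1.53, beside 17.6% and 18.7%. Resident macrophages against monocytes gave 7 higher and 0 lower there, beside 22.4% and 9.92%. The border between resident and Gpnmb macrophages depended on the settings. Cd163 in the deletion-labelled library went from 2.65 to -0.79 at a mitochondrial limit of 10%, and Lyve1 in the control library from 5.32 to -0.33 at resolution 0.5.

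Cluster 6, which had no name, carried more of several resident-type receptors than the named resident macrophages of the same libraries. Cd163 stood there at 492 CPM (472 to 514) and 358 CPM (338 to 378), against 151 and 140.0 CPM in resident macrophages. Lyve1 was at 83.9 CPM and 164 CPM, against 21.9 and 40.7 CPM, and Folr2 at 253 and 231 CPM, against 192 and 160.0 CPM. Thinned shares of cells with Lyve1 were 3.85% (1.06% to 9.56%) and 4.64% (2.86% to 7.08%) in resident macrophages, control first. In cluster 6 they were 6.78% (3.9% to 10.8%) and 14.6% (9.61% to 21.0%), and the control intervals overlap. Mrc1 was lower there, at 218 and 409 CPM, as was Stab1 at 269 and 184 CPM. Its leading genes Saa3, Arg1 and Prtn3 are not in the resident list, while Ltc4s and Fcna are. Cluster 16 held Marco, Timd4 and Msr1 but 0 Lyve1 UMIs in both libraries and Mrc1 at only 29.2 and 48.0 CPM.

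**Figure D4:**
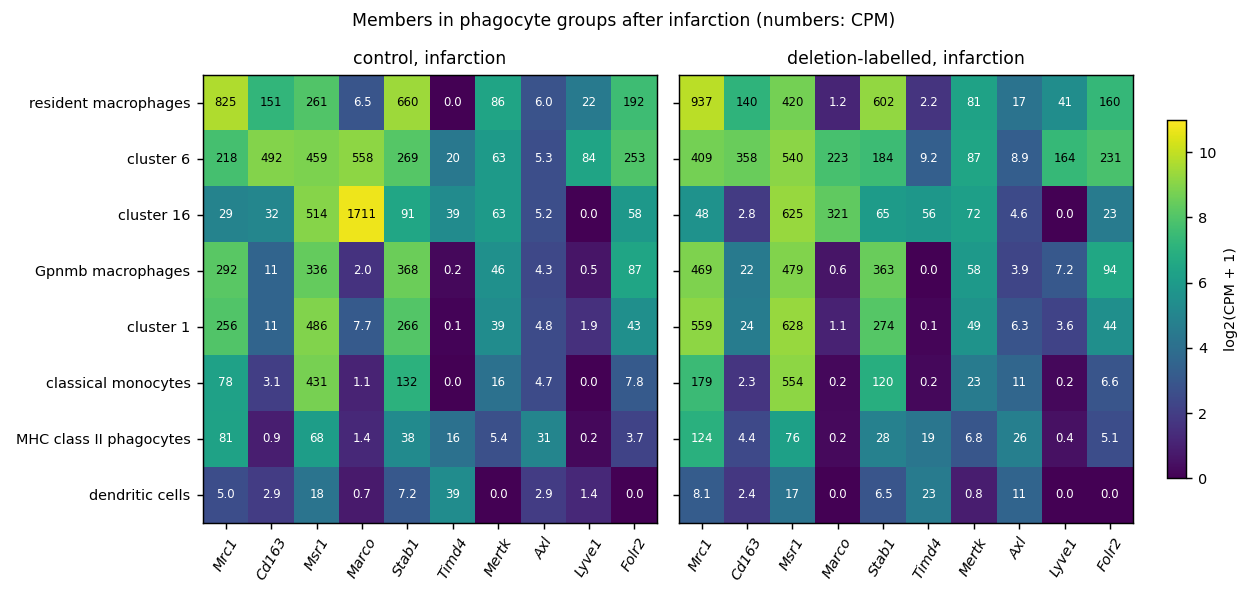
Heat map of the level of each receptor (columns) in 8 phagocyte groups (rows) of the control and deletion-labelled infarction libraries, coloured by log2(CPM + 1) with the CPM written in each cell. Marco stands out in clusters 16 and 6, Cd163 and Lyve1 are highest in cluster 6, and colours are to be compared within a column.

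Without infarction, 3 of 9 receptors were lower and 0 higher in deletion-labelled than in control resident macrophages, beside 8.08% and 4.51% of 8960 genes. They were Lyve1 at -0.97 (-1.06 to -0.88), Cd163 at -0.91 (-0.996 to -0.83) and Mertk at -0.67 (-0.91 to -0.43) on the log2 scale. Axl at 0.56 (0.34 to 0.78) and Msr1 at -0.52 stayed within 1.5-fold, and Mrc1 at -0.19, Folr2 at 0.19, Timd4 at -0.10 and Stab1 at -0.01 differed less. The median of the 9 was -0.19, beside -0.08 over all genes compared. At resolution 2.0, 1 receptor was past 1.5-fold, with Lyve1 at -0.54. Over all phagocytes 4 were lower, with Msr1 at -0.59 added, beside 6.31% of 9889 genes, and 0 higher, beside 6.79%. The MHC class II list summed to 27370 CPM in the deletion-labelled resident cells and 22050 CPM in the control, the classical monocyte list to 299 and 107 CPM and the erythroid list to 51.8 and 9.84 CPM. Their part in these differences was not tested.

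After infarction the picture in resident macrophages was the other way for Lyve1. It was at 40.7 CPM in the deletion-labelled and 21.9 CPM in the control library, 0.89 (0.44 to 1.38) on the log2 scale. Axl at 1.55 (0.70 to 2.53) and Msr1 at 0.69 (0.55 to 0.82) were higher as well, so that 3 of 8 receptors were higher and 0 lower, beside 8.57% and 2.58% of 9502 genes. Mrc1 was at 0.18 and Cd163 at -0.11. The Lyve1 ratio rested on 44 UMIs in the control and ranged from 0.44 to 3.79 over the alternatives. The Axl ratio rested on 12 UMIs in the control. Thinned shares of cells with Axl were 0.96% (0.024% to 5.24%) in the control and 3.71% (2.14% to 5.96%) in the deletion-labelled library, whose intervals overlap. The MHC class II list was also higher in the deletion-labelled resident cells, 2235 against 682 CPM, and its part was not tested.

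Mrc1 was higher in the deletion-labelled infarction library over the phagocytes as a whole, at 470 against 228 CPM, a log2 ratio of 1.04 (1.01 to 1.07). In these sums Mrc1, Lyve1 and Axl were the 3 of 10 receptors that were higher, beside 5.66% of 12430 genes, and Marco was the 1 lower, beside 2.14%. Mrc1 was past 1.5-fold in 9 of the 10 phagocyte groups with at least 50 cells in both libraries, and the ratio was positive in all 10. All 10 groups come from the same 2 libraries and are not independent. Classical monocytes held 179 CPM (171 to 187) against 77.9 CPM (72.8 to 83.2), a log2 ratio of 1.2 (1.08 to 1.32), and Gpnmb macrophages 469 against 292 CPM, 0.68 (0.60 to 0.77). The ratio was 1.13 in cluster 1, led by Spp1 and Cxcl3, 1.25 in the interferon-gene cluster 8, 0.91 in cluster 6, 0.88 in cycling and 0.62 in MHC class II phagocytes. It was 0.77 in cluster 9, led by Mcm6 and Mcm5, and 0.92 in the shallow cluster 11. The background of genes higher in these groups was 3.67% in cluster 1, 7.44% in cluster 8, 7.49% in cluster 6, 5.19% in cycling and 4.39% in MHC class II phagocytes, 7.68% in cluster 9 and 10.9% in cluster 11. Of the 10 groups resident macrophages were the 1 that stayed within 1.5-fold. In B cells of the same libraries Mrc1 was at 5.62 CPM in the deletion-labelled and 7.90 CPM in the control library. Mrc1 was higher in the deletion-labelled library in neutrophils, at 11.3 against 7.59 CPM, and in fibroblasts, at 3.51 against 2.33 CPM. Endothelial cells (6.43 against 4.34 CPM, 23 and 10 UMIs) and T and NK cells (7.58 against 4.81 CPM, 14 and 7 UMIs) had the same order. So did mural cells (5.21 against 1.80 CPM, 10 and 2 UMIs). The counts in these last classes were all under 30 UMIs, and their intervals overlap between the libraries. The part of such a background in the phagocyte ratios was not tested.

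**Figure D5:**
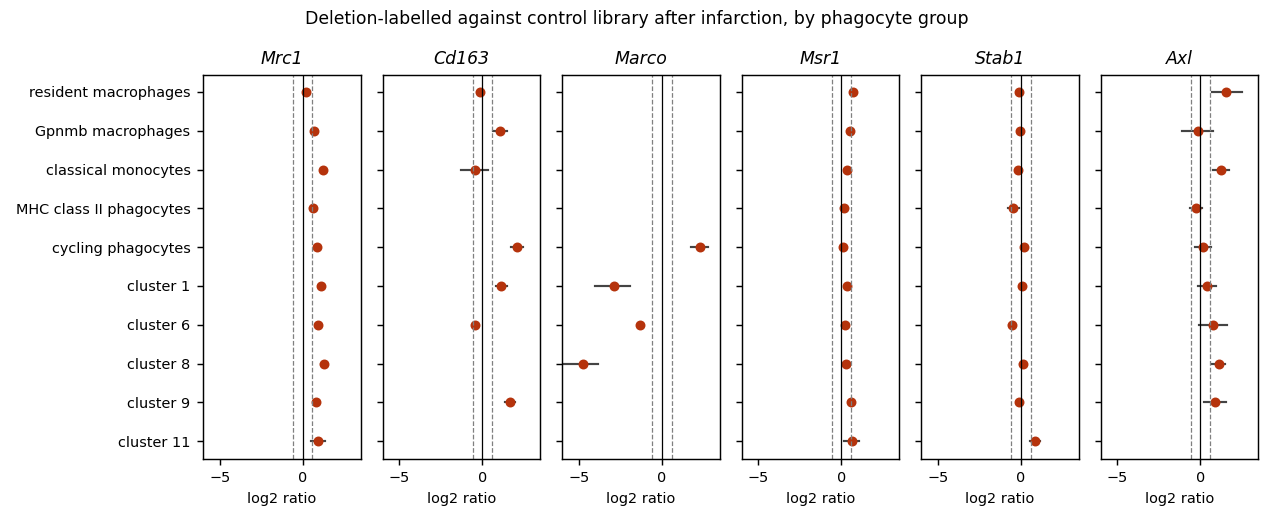
Log2 ratio of deletion-labelled to control after infarction for 6 receptors in 10 phagocyte groups, where the gene had at least 30 UMIs in 1 of the 2 sums, with exact 95% counting intervals drawn within the axis range and dashed lines at 1.5-fold. Mrc1 lies above 0 in all 10 groups, while Marco lies below 0 in clusters 1, 6 and 8 and above 0 in cycling phagocytes.

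Among the other receptors, Axl was past 1.5-fold higher in 5 of the 9 groups with enough UMIs, Cd163 in 4 of 7, Lyve1 in 3 of 5 and Mertk in 1 of 9, and each was lower in 0. Cd163 had a negative ratio within 1.5-fold in 3 groups, Axl in 2, and Lyve1 and Mertk in 1 each. Timd4 was higher in 0 and lower in 1 of 2 groups, and Stab1 was higher in 1 of 10 and lower in 0. In Gpnmb macrophages 2 of 7 were higher, Cd163 at 1.06 (0.63 to 1.48), 22.2 against 10.7 CPM, and Mrc1, beside 4.93% of 9359 genes, and 0 were lower, beside 3.5%. The count of 2 became 1 with median-of-ratios scaling or at 2-fold, and 4 or 5 at a minimum of 10 UMIs and where the class was redrawn, except at the mitochondrial limit of 10%, where it was 3. Erythroid transcripts summed to 2805 CPM in the deletion-labelled and 3.11 CPM in the control Gpnmb macrophages, and their part was not tested. In classical monocytes 2 of 7 were higher, Mrc1 and Axl at 1.25 (0.77 to 1.74), 11.2 against 4.72 CPM, beside 3.69% of 9422 genes, and 0 were lower, beside 2.0%. The erythroid list stood there at 47.5 against 1.57 CPM and the neutrophil list at 459 against 855 CPM, and their part was not tested. Msr1 had a positive ratio in all 10 groups but was past 1.5-fold in 3. Folr2 was past it in 0 of 8 groups. Marco was lower in the deletion-labelled library in 3 of 4 groups, by -2.87 in cluster 1, -1.33 in cluster 6 and -4.76 in cluster 8, where its 1 UMI was raised to the floor of 3, and higher by 2.28 in cycling phagocytes. The background of lower genes was 2.77%, 4.03% and 3.78% in these clusters, 2.66% in cycling and 2.5% in MHC class II phagocytes, 2.76% in cluster 9 and 8.42% in cluster 11. Over all phagocytes Marco was at -1.56 (-1.65 to -1.48). Thinned shares of cells with Marco were 0.35% in control and 0.25% in deletion-labelled cluster 1, where unthinned shares were 2.45% and 1.25%. In cluster 6 thinned shares were 20.34% (15.39% to 26.05%) and 10.98% (6.636% to 16.79%), control first. The intervals overlap in clusters 1 and 6. Over all phagocytes the thinned shares were 2.51% and 1.29%, whose intervals were apart. The Marco ratio in cluster 1 thus rests on few cells.

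Related genes of the uptake pathway gave a mixed picture in resident macrophages. Of 9 bridging molecules and opsonins, 2 were higher and 5 lower after infarction in control hearts and 3 higher and 6 lower in deletion-labelled hearts. Over all genes 17.3% were higher and 35.5% lower in control and 20.9% and 22.6% in deletion-labelled hearts, and every list count of infarction against none is to be read against these shares. Thbs1, whose product thrombospondin-1 binds CD36 and CD47, stood out at 690 and 687 CPM after infarction against 4.45 and 3.19 CPM before. In classical monocytes after infarction Thbs1 was at 2828 and 3525 CPM. Anxa1, which encodes annexin A1, stood at 72.9 and 69.9 CPM before and 220 and 280.0 CPM after. Between the infarction libraries 0 of 9 bridging genes were higher and 3 lower in the deletion-labelled resident macrophages, beside 8.57% and 2.58% of all genes. The 3 were the C1q chains, C1qb at 1685 against 3336 CPM, C1qa at 1866 against 3153 CPM and C1qc with a log2 ratio of -0.73. Without infarction 0 of 8 bridging genes passed 1.5-fold between the genotypes, beside 4.51% higher and 8.08% lower of 8960 genes, so that 0 is near the background.

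Among the other scavenger receptors 3 of 8 were higher and 3 lower after infarction in control, and 4 of 12 higher and 6 lower in deletion-labelled resident macrophages. The share lower in control was near the 35.5% of all genes. Colec12, a collectin-type scavenger receptor, stood at 187 and 144 CPM before and 18.9 and 23.3 CPM after. Of the other efferocytosis receptors 7 of 12 were higher and 3 lower in control, and 6 of 12 higher and 2 lower in deletion-labelled hearts, beside 17.3% and 35.5%, and 20.9% and 22.6%, of all genes. Trem2, a lipid receptor of macrophages that is also in the Gpnmb marker list, stood at 891 and 748 CPM after infarction against 234 and 183 CPM before. Cx3cr1, the fractalkine receptor, went from 581 and 787 CPM to 194 and 164 CPM.

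Downstream of uptake, 6 of 22 genes of phagosome maturation and lipid efflux were higher and 3 lower in control, and 9 higher and 1 lower in deletion-labelled hearts, beside 17.3% and 35.5%, and 20.9% and 22.6%, of all genes. Ctsd, a lysosomal protease that is in the Gpnmb list too, stood at 5295 and 4298 CPM against 376 and 317 CPM, and Nr1h3, which encodes the sterol sensor LXR alpha, had log2 ratios of 3.09 and 3.53. Of 16 engulfment genes 1 was higher and 6 lower in control and 4 higher and 2 lower in deletion-labelled hearts. The share lower in control was near the 35.5% of all genes, which was itself above the 22.6% in deletion-labelled hearts. Of 6 sheddases and related genes, 1 was higher and 2 lower in each genotype. Of 15 macrophage transcription factors 4 and 3 were higher and 5 and 4 lower, shares not far from those of all genes, with Klf2 at -2.82 and -2.84 and Bhlhe40 at 3.23 and 3.67.

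The genes whose levels ran most like each receptor over 48 sums of class and library are given as a description, since the sums share 4 libraries. Pearson's r of log2(CPM + 1) was 0.953 between Mrc1 and F13a1 and 0.951 between Cd163 and Cbr2, a gene of the resident marker list. Msr1 ran with Fcgr1 and Trem2, both at 0.972, and Folr2 with Siglec1 at 0.926. Marco ran with Cd5l at 0.870, Alox15 at 0.864 and Fcna at 0.805, and Stab1 with Dab2 at 0.913. Mertk was most like Tmem86a at 0.909 and Axl most like Ank2 at 0.892. Timd4 and Lyve1 had no close partner, with highest values of 0.669 for Vsig4 and 0.730 for Lilra5.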

How the data were processed

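Single-cell RNA was measured in 4 mouse heart libraries, 1 per group, from live nucleated sorted cells. Each deposited matrix lists unnormalized UMI counts by gene and barcode. The submitters' processing notes name Cell Ranger 5.0.1 and mm10. The annotation release is not given in the sources used here. Barcodes with under 500 UMIs, under 200 genes or over 20% mitochondrial UMIs were removed (205 to 544 per library), as were 670 to 1066 possible doublets per library, by a score from simulated pairs at 0.8% per 1000 barcodes.

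The 4 libraries were clustered jointly, using 2000 variable genes without the 10 receptors, 30 components, 20 neighbours and Leiden resolution 1.0 (leidenalg 0.10.2, scikit-learn 1.9.0, scipy 1.17.1, numpy 2.4.6, Python 3.11.15), giving 38 clusters, and phagocytes were clustered again the same way. A cluster took the class whose markers had the highest mean difference in share of cells, if this was at least 0.1 3 markers were found in 20% of its cells and its leading genes did not favour another class. These limits, the endothelial groups, and the genotype comparisons in MHC class II, cycling and unnamed clusters were chosen after the data were seen. The receptors and gene lists were chosen with earlier results of these data known.

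Class sums of at least 50 cells were compared as CPM, with exact Poisson intervals for levels, exact intervals conditional on both counts for log2 ratios, and exact Clopper-Pearson intervals for shares. Counts under 3 UMIs were raised to that floor in ratios. Ratios were checked on simulated counts. Up to 4 genes per pathway list and comparison, those with the largest ratio past 1.5-fold, and the 3 genes most like each receptor could be named. Gene positions are from GENCODE M21. Mitochondrial limit, doublet removal, clustering genes, resolution, scaling, fold, minimum UMIs and thinning depth were each varied.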

Additional observations from a re-analysis of the deposited data

Results flagged for a closer look

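Lyve1 differed between the genotypes in opposite directions without and after infarction. In resident macrophages the log2 ratio of deletion-labelled to control was -0.97 without infarction and 0.89 after it. Over all mononuclear phagocytes it was -1.08 and 1.34. The difference between these ratios was not tested, because each group has 1 library. The control resident value after infarction rested on 44 UMIs, and over the alternatives the ratio of 0.89 ranged from 0.44, which is within 1.5-fold, to 3.79. The thinned shares of resident cells with Lyve1 after infarction were 3.85% (1.06% to 9.56%) in the control and 4.64% (2.86% to 7.08%) in the deletion-labelled library, whose intervals overlap.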

How the results depend on the processing

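No paired analysis was possible because there is a single library per group, and no replicate could be left out. Of 16 counts of receptors past 1.5-fold, averaging CPM over cells kept all 16 within 1.5 times. Infarction against no infarction kept its counts within 1.5 times under every alternative run, in resident macrophages and over all phagocytes. In Gpnmb macrophages the genotype count of 2 after infarction became 1 with median-of-ratios scaling, 1 at 2-fold, 4 at a minimum of 10 UMIs, 4 with the receptors among the clustering genes, 5 without doublet removal, 4 at resolution 0.5 and 5 at resolution 2.0. Where clusters were drawn anew, the Gpnmb class held 560 to 1181 control cells in place of 526 and 347 to 792 deletion-labelled cells in place of 167. In resident macrophages the genotype count of 3 after infarction became 1 at 2-fold. Without infarction the count of 3 became 0 at 2-fold, 5 at the mitochondrial limit of 10% and 1 at resolution 2.0, and over all phagocytes the count of 4 became 2 at 2-fold. The count of 6 for resident against Gpnmb macrophages in the deletion-labelled library became 3 at 2-fold, 2 at the 10% limit and 3 at resolution 2.0.

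Ratios of resident to Gpnmb macrophages changed sign in 8 cases. In the deletion-labelled library Cd163 became -0.79 at the 10% limit and -0.062 at resolution 2.0, Mrc1 became -0.13 and -0.12 at these settings, and Stab1 became -0.12 at the 10% limit. In the control library Lyve1 became -0.27 with the receptors among the clustering genes, -0.33 at resolution 0.5 and -0.23 at resolution 2.0. The cause was not tested. Thinning to 1000 in place of 2000 UMIs moved 178 of 310 shares beyond their counting interval. Depth limits Marco in resident macrophages, which had under 30 UMIs in every library, and Timd4, Axl and Lyve1 in the control resident class after infarction, which had 0, 12 and 44 UMIs.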
